A study of Sus scrofa with 8 samples.

Results

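Head-to-head coding gene pairs are neighbouring genes that are transcribed away from each other from a short shared stretch of DNA. They were chosen by position alone, from the gene models that the authors deposited for the pig genome: the distance between 5′ ends chose the members. A pair had a protein-coding gene on the minus strand to the left and one on the plus strand to the right, with their farthest 5′ exon bases 1 to 1000 bp apart and not overlapping. The rule found 858 pairs. They held 1712 of the 20679 protein-coding genes (8.28%), and APBB3, WDR62, B3GALT6 and RAD17 each had a partner in 2 pairs. In 753 pairs both genes had a name rather than a placeholder symbol.

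The gene models served single-cell RNA sequencing of submucosal glands (SMGs), the mucus- and fluid-secreting glands under the airway surface, dissected from the trachea of newborn pigs. There were 4 wild-type and 4 CFTR-/- libraries, 1 per animal, prepared with 10x 3′ chemistry. CFTR-/- pigs lack the anion channel that is mutated in cystic fibrosis. The same annotation served all 8 libraries, so it holds no value per animal or genotype, and no count matrix was analysed here. Every count below is a complete count over 1 annotation, with no replicate error and no test. In a 3′ library the reads lie near the 3′ ends of transcripts. The partners of a pair lie on opposite strands, and their 3′ ends were a median of 53645.5 bp apart (range 1201 to 1979257 bp).

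The stretch between such genes is often called a bidirectional promoter. In mammals these promoters are known for CpG islands, for the scarcity of TATA boxes, and for binding sites of ETS-family factors, NRF1, YY1 and NF-Y, the factor that binds the CCAAT box. Many of the genes they serve have housekeeping roles in DNA repair, mitochondria, protein synthesis and cilia, and some partners are transcribed together while others are not.

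The bases between the partners show what these promoters look like. Each is printed on the plus strand of Sscrofa11.1, 5′ to 3′ in the direction of the right-hand gene, and excludes the exons of both genes. Capitals mark matches on either strand to any of 9 motifs: the Sp1 box GGGCGG, the CCAAT box CCAAT, the ETS motif CCGGAAG, the NRF1 motif GCATGCGC, the YY1 motif AAGATGGCG, the letters CTCGCGAGA, the cyclic AMP response element TGACGTCA, the E-box CACGTG and the TATA box TATAAA. No motif contains another. A match is a match of letters and not a shown binding site. The first set holds textbook human pairs that are also pairs in the pig.
SIRT3-PSMD13, chr2:55075-55107: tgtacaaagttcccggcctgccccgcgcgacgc
NFS1-ROMO1, chr17:39029180-39029220: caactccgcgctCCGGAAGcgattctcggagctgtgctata
TRMT2A-RANBP1, chr14:51494205-51494257: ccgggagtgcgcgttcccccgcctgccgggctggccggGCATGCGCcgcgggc
TAP1-PSMB9, chr7:25071990-25072132: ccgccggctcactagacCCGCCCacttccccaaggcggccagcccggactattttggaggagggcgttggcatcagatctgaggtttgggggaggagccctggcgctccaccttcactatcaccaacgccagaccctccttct
HADHB-HADHA, chr3:112753122-112753342: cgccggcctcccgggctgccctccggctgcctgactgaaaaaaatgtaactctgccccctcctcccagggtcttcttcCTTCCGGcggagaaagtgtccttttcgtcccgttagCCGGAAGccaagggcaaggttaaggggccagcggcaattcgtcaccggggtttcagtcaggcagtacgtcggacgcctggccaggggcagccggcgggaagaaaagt

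SIRT3, a mitochondrial deacetylase, and PSMD13, a proteasome subunit, had 33 bases between them and no match. The 41 bases between NFS1, the cysteine desulfurase of iron-sulfur cluster assembly, and ROMO1 held 1 ETS match. The stretch between TRMT2A and RANBP1, a regulator of the Ran GTPase, held an NRF1 match. TAP1, the peptide transporter of antigen presentation, and PSMB9, an immunoproteasome subunit, shared 143 bases with an Sp1 match. HADHB and HADHA encode the subunits of the mitochondrial trifunctional protein of fatty acid oxidation, and their 221 bases held ETS matches in both orientations.

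The next set comes from the families and the transporter genes described below, and from pairs whose partners are related genes.
MRPS11-MRPL46, chr1:191321952-191321989: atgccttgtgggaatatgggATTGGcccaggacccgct
MBD4-IFT122, chr13:68828560-68828709: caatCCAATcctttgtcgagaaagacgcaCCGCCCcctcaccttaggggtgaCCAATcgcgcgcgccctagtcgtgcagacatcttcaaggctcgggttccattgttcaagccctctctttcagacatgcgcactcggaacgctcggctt
CLCN2-POLR2H, chr13:122249890-122250086: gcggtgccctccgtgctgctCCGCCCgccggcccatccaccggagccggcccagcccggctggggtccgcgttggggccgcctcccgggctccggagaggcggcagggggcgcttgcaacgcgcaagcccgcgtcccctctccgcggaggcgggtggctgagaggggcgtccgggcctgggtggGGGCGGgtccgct
UBE2J2-SCNN1D, chr6:63568081-63568170: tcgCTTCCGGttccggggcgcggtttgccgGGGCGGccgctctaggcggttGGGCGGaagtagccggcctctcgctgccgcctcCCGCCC
DUOXA2-DUOX2, chr1:126620360-126620467: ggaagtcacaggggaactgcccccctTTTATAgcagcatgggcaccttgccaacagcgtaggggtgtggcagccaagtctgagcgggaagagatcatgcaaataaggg
ABCG8-ABCG5, chr3:96616225-96616303: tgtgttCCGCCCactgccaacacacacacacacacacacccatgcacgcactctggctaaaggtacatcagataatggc
ART1-ART5, chr9:6443640-6443767: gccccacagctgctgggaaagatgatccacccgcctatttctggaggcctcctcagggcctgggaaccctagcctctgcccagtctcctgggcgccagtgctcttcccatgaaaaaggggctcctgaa

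MRPS11 and MRPL46, both proteins of the mitochondrial ribosome, had 38 bases between them with a CCAAT match on the other strand. The stretch of CLCN2, a chloride channel, was 80.7% GC, and that of SCNN1D, the delta subunit of the epithelial sodium channel, 76.7%. DUOX2 is a dual oxidase that makes hydrogen peroxide at the surface of airway and thyroid epithelia, and DUOXA2 is the factor it needs to mature. Their 108 bases held 2 CpG dinucleotides and a TATAAA match on the strand of DUOXA2. The bases between ABCG8 and ABCG5, which together form a sterol exporter, held 2 CpGs, as did those between the ADP-ribosyltransferase genes ART1 and ART5.

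The last sequence is the most GC-rich of the named pairs at least 100 bp apart.
BET1L-RIC8A, chr2:31961-32134: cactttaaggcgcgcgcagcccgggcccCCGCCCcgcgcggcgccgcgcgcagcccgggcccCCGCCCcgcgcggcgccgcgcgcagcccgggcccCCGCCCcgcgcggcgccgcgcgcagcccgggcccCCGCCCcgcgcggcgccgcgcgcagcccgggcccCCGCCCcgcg

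It lies between BET1L, a SNARE protein of the Golgi, and RIC8A, a chaperone of G protein alpha subunits. Its GC content was 93.7%, with 43 CpGs in 174 bases. It was a tandem repeat: of 140 bases compared with the base 34 positions on, 133 were equal (95.0%). Of the 320 stretches of 100 to 300 bases, it was the only one above 70% equal at any shift of at least 5 bases. The second was ACAP3-PUSL1 with 64.9%. CMC4-BRCC3 (92.4% GC) and PSMA7-SS18L1 (91.2%) followed in GC content. At the other end stood COQ5-RNF10 (33.7%), DNASE2B-UOX (36.1%) and ACTRT3-MYNN (36.6%), all over 600 bp apart. UOX encodes urate oxidase, and MYNN a zinc finger protein.

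Most partners were much closer than the bound. The median distance was 115 bp (interquartile range 59 to 224). In 393 pairs (45.8%) it was at most 100 bp, in 607 (70.7%) at most 200 bp, and in 76 (8.86%) over 500 bp. In 5 pairs the 5′ ends were adjacent bases, at a distance of 1 bp: IFT80-SMC4, KLHL10-NT5C3B, NPRL2-LOC100517372, PHKB-ITFG1 and THYN1-ACAD8. IFT80 is an intraflagellar transport protein and SMC4 a condensin subunit. The next named pairs were WDR46-PFDN6 (2 bp), MAP6-MOGAT2 (3 bp), and ATP4A-HAUS5, GNPTG-TSR3, HMGN5-SH3BGRL and MRPL41-PNPLA7 (5 bp each).

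**Figure D1:**
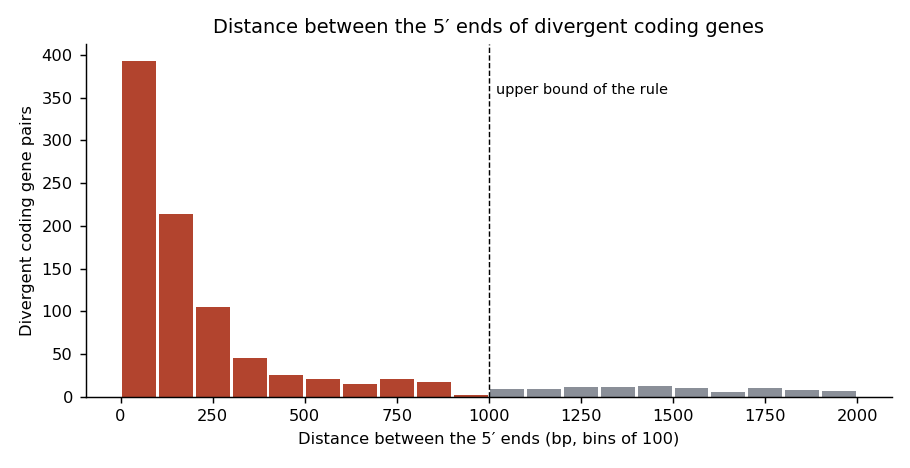
Number of divergent coding gene pairs (y axis) by the distance between their 5′ ends in bins of 100 bp (x axis). Red bars are pairs within the bound of 1000 bp and grey bars lie beyond it. Counts fell from 393 in the first bin to 2 in the last one inside the bound, and lay between 6 and 13 from 1001 to 2000 bp.

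The bound fell where few pairs lay. The bins of 100 bp held 393, 214, 105, 45, 25, 21, 15, 21, 17 and 2 pairs. Beyond it, each kilobase up to 10000 bp held 95 to 125. Just inside were LRRC63-LCP1 (893 bp), EIF5B-TXNDC9 (932 bp) and LOC110261360-FGF21 (939 bp). Just outside were TRAPPC6A-BLOC1S3 (1001 bp), TMEM38A-SMIM7 (1005 bp) and EEF1AKMT2-ABRAXAS2 (1015 bp). DUOX1 and DUOXA1, the paralogs of DUOX2 and DUOXA2, were also divergent but 2058 bp apart. A further 430 coding pairs had 5′ ends that overlapped by up to 1000 bp and are no members, and 580 coding pairs were tail to tail within 1000 bp.

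The distances depend on which transcript marks a gene's start. Both 5′ ends came from curated (NM) transcripts in 15 pairs, 1 of them in 162 and neither in 681. The other 5′ ends came from transcripts without an NM label, such as predicted models and the mitochondrial genes. With the start that lies farthest downstream in each gene, 475 of the 858 pairs (55.4%) stayed within 1000 bp and the median distance of all 858 was 702.5 bp.

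Pairs lay on every assembled chromosome but Y. The share of coding genes in pairs ran from 5.63% on chromosome 17 to 11.4% on chromosome 12 among autosomes, and was 5.5% on X. A single member was mitochondrial: MT-ND6 and MT-CYTB, 76 bp apart, with a tRNA gene between them. Mitochondrial genes are transcribed as long joint transcripts, so this pair meets the rule without the promoter arrangement of the nuclear ones. In 14 pairs an exon of another gene lay between the partners, such as AK6 between TAF9 and RAD17, S100A1 between CHTOP and S100A13, and CRIPT between SOCS5 and PIGF.

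Promoters of the pairs were rich in CpG dinucleotides. A promoter here is the 300 bases from 250 before to 50 after the 5′ end. The ratio of observed to expected CpG had a median of 0.847 (interquartile range 0.728 to 0.970) in the 1712 genes of the pairs and 0.585 (0.277 to 0.835) in 18957 other coding genes. GC content was 64.7% and 57.3%. A promoter was called CpG-rich at a ratio of at least 0.6 and a GC content of at least 50%. By this call 1451 of the 1712 promoters (84.8%) were CpG-rich, beside 48.8% of all coding promoters and 45.5% of those outside pairs. Genes with overlapping 5′ ends were close to the pairs at 77.5%. Genes whose divergent neighbour lay over 1000 and up to 10000 bp away were at 44.8%, near the genes outside pairs. Both promoters were CpG-rich in 678 pairs (79.0%), 1 in 99 and neither in 81 (9.44%). In 781 pairs the partners were under 500 bp apart, so their windows share bases and the genes of a pair are not independent. With only the minus-strand gene of each pair counted, 85.6% were CpG-rich.

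**Figure D2:**
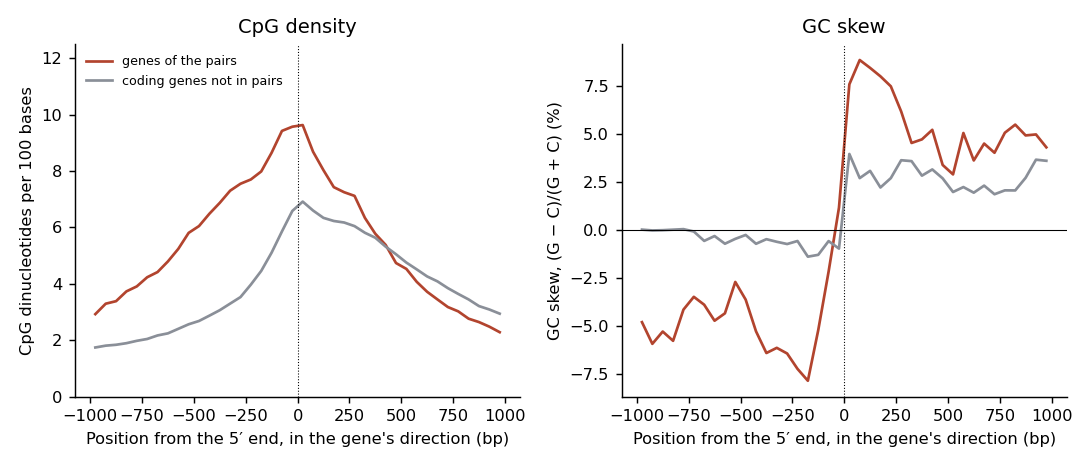
CpG dinucleotides per 100 bases (left) and GC skew in percent (right) in 50-base bins from 1000 bases before to 1000 after the 5′ end, each gene read in its own direction. The red line is the mean over 1712 genes of the pairs and the grey line over 18940 coding genes not in pairs. In the pairs the CpG density is 9.57 just before the 5′ end and 9.63 just after it, beside 6.58 and 6.92, and the GC skew is below 0 in each bin more than 50 bases upstream and above 0 downstream.

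The CpG density was high on both sides of the 5′ end. It was 7.70 CpGs per 100 bases at 201 to 250 bases upstream in the pairs, beside 3.97 in other genes. Downstream the order turned: 950 to 999 bases after the 5′ end it was 2.29 in the pairs and 2.95 in the others. GC skew, the excess of G over C on the gene's strand, was -7.24% at 201 to 250 bases upstream in the pairs and 8.84% at 50 to 99 bases downstream. In other genes these values were -0.58% and 2.69%. The upstream bases of 1 partner are largely the downstream bases of the other on the opposite strand.

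The 81 pairs with no CpG-rich promoter included genes with narrow expression known from other mammals. Their CpG ratios, minus-strand gene first, were 0.224 and 0.226 for DUOXA2-DUOX2, 0.321 and 0.234 for ABCG8-ABCG5, and 0.400 and 0.423 for ART1-ART5. DCST1-DCST2, sperm membrane proteins of fertilization, had 0.260 and 0.253. COLCA1-COLCA2 had 0.0862 and 0.466. The same class also held genes of general function, among them RPL4-ZWILCH, NCAPD2-MRPL51 and IFT20-TNFAIP1. Also in it was IRF3, which switches on interferon genes after viral sensing. It faced BCL2L12, and the ratios were 0.340 and 0.274.

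TATA boxes at their usual position were few. TATAAA on the gene's strand within 20 to 40 bases before the 5′ end was found in 6 of 1712 promoters (0.35%), beside 0.895% of all coding promoters. These 6 were DUOXA2, METTL12, MYNN, TCTA, TRAPPC11 and LOC110261666, a histone H2A gene. Anywhere in the window on either strand the letters were in 5.2% of the promoters of the pairs and 12.2% of the others (11.6% of all). Within CpG-rich promoters they were in 2.89% and 4.38%. The scarcity was not particular to the pairs. Genes with overlapping 5′ ends were at 0.351% for the usual position and at 4.1% anywhere in the window.

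The other motifs differed from each other in how they compared. Most partners lay closer than the 250 bases a window reaches upstream. Such a window also covers the partner's start, so a match need not lie between the partners. The ETS motif was in 28.3% of the promoters of the pairs, 8.96% of the others and 10.6% of all. NRF1 letters were in 7.65%, 2.52% and 2.95%, and YY1 letters in 5.02%, 1.1% and 1.42%. CTCGCGAGA was in 2.92%, 0.638% and 0.827%, and the cyclic AMP response element in 4.79%, 1.93% and 2.16%. The Sp1 box was in 73.5%, 46.7% and 48.9%, the CCAAT box in 40.7%, 35.2% and 35.7%, and the E-box in 10.3%, 7.4% and 7.63%. Genes with overlapping 5′ ends lay in between for the ETS motif (19.3%), NRF1 (4.1%), YY1 (2.34%), CTCGCGAGA (1.87%), the Sp1 box (63.6%) and the E-box (8.08%). They lay below both for the CCAAT box (28.8%) and the cyclic AMP response element (1.87%). CpG-rich promoters compared among themselves gave a different picture for part of these. The ETS motif was then in 31.9% of the pairs' promoters and 16.2% of the others, NRF1 in 8.48% and 4.75%, and YY1 in 5.58% and 2.03%. The Sp1 box was in 79.3% and 79.7%. The CCAAT box was in 39.5% and 33.0%. In a longer window of 500 bases before the 5′ end its order turned over all genes (49.5% in the pairs and 50.2% in the others). Between the partners themselves, 657 stretches of 20 to 300 bases were searched, none longer than a window. The ETS motif was in 12.3% of them, NRF1 letters in 4.11%, YY1 letters in 0.761%, the Sp1 box in 49.8% and the CCAAT box in 29.5%.

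**Figure D3:**
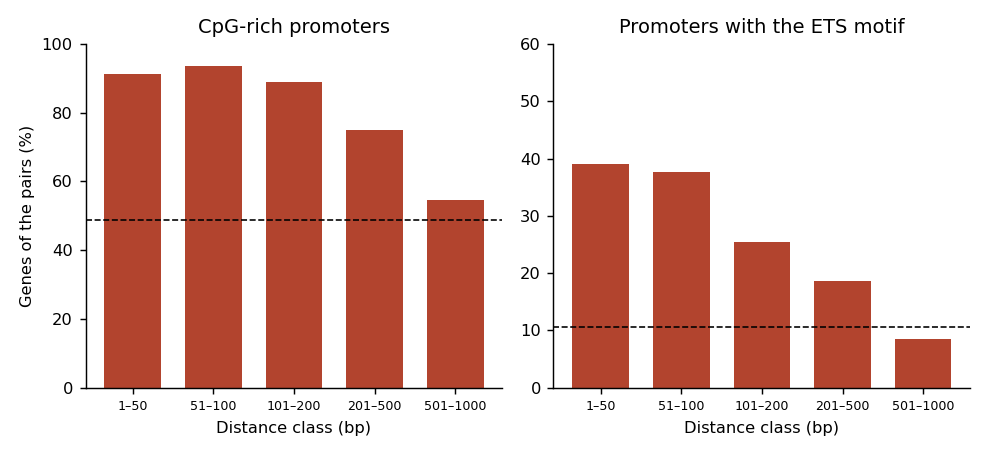
Share of genes of the pairs (y axis, percent) whose promoter was CpG-rich (left) or held the ETS motif (right), by the distance between the partners (x axis, bp). Dashed lines mark all coding promoters, at 48.8% and 10.6%. Both shares are lowest in the widest class, at 54.6% and 8.55%.

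Composition changed with distance inside the set. From the closest class (1 to 50 bp, 179 pairs) through 51 to 100 (214), 101 to 200 (214) and 201 to 500 bp (175) to 501 to 1000 bp (76 pairs), the share of CpG-rich promoters was 91.3%, 93.7%, 89.0%, 75.1% and 54.6%. The ETS motif was in 39.1%, 37.6%, 25.5%, 18.6% and 8.55%. The CCAAT box went another way, with 29.9%, 39.3%, 47.2%, 48.6% and 34.9%. Pairs over 500 bp apart had ETS letters about as often as all coding promoters (10.6%), and both of their promoters were CpG-rich in 31.6%. Closer partners share more of their windows, and the part this has in the trend was not tested.

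Over all genes, lengths of UTRs were close, while gene models without a 5′ UTR or with 1 exon were fewer in the pairs. The 5′ UTR was a median of 184 bases in the pairs and 187 in the others, and the 3′ UTR 722 and 726. Among named genes both were shorter in the pairs, with 5′ UTRs of 187 and 211 bases and 3′ UTRs of 730 and 940. Models with no 5′ UTR made up 2.86% of the genes of the pairs and 12.1% of the others, and single-exon genes 2.39% and 10.7%. Among named genes these were 2.27% and 5.14%, and 1.2% and 2.67%. Placeholder symbols were carried by 7.36% and 21.1%. The median span was 20844 and 18993 bp, but 21710.5 and 25765 bp among named genes.

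Partners were more alike in span than in the other features of the gene models. Across the 858 pairs Spearman's rho between the partners' spans was 0.378, beside 0.257 for tail-to-tail neighbours (n = 580) and 0.317 for divergent neighbours over 1000 and up to 10000 bp apart (n = 985). All of these share a region of the genome and its base composition. For the number of transcripts it was 0.0134 in the pairs, 0.0402 tail to tail and 0.0535 at the wider distance. In the same order it was 0.0204, 0.125 and 0.219 for the number of exons, 0.00724, 0.0986 and 0.0777 for the coding length, and 0.0896, 0.223 and 0.196 for the 3′ UTR. For the CpG ratio it was 0.717, but these windows share bases. DNAJB4-FUBP1 (37450 and 37582 bp) and AP1M1-CIB3 (29765 and 29580 bp) were nearly equal in span. The most unequal were PRPS1L1-HDAC9 (2452 and 1028404 bp), with a histone deacetylase, and DLG2-TMEM126B (1971427 and 7584 bp), with a synaptic scaffold protein.

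Among families of mitochondria, translation and cilia the share of members ranged widely. Of 14 intraflagellar transport genes, which build cilia, 6 were in pairs (42.9%, beside 8.28% of all coding genes): IFT80, IFT172, IFT122, IFT20, IFT27 and IFT57. Their partners had no cilium-related name and lay 1 to 228 bp away: SMC4, GCKR, MBD4, TNFAIP1, NCF4 and HHLA2. The share was 29.8% for subunits and assembly factors of complex I of the respiratory chain (14 of 47, of which 6 were assembly factors), 25.0% for mitochondrial ribosomal proteins (19 of 76), 24.2% for aminoacyl-tRNA synthetases (8 of 33) and 19.5% for cytosolic ribosomal proteins (16 of 82). Exosome subunits (3 of 10), Integrator subunits (4 of 15), tRNA methyltransferases (4 of 16) and RNA polymerase subunits (6 of 28) ranged from 21.4% to 30.0%. Other lists of the same kind were lower: cytochrome c oxidase subunits and assembly factors at 9.09% (1 of 11), axonemal dyneins and their assembly factors at 13.6% (3 of 22), and cilia and flagella associated proteins at 3.85% (1 of 26). None of 7 Bardet-Biedl syndrome genes, which also serve cilia, was a member. These lists are small and were chosen with earlier results known, so their shares are descriptions.

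**Figure D4:**
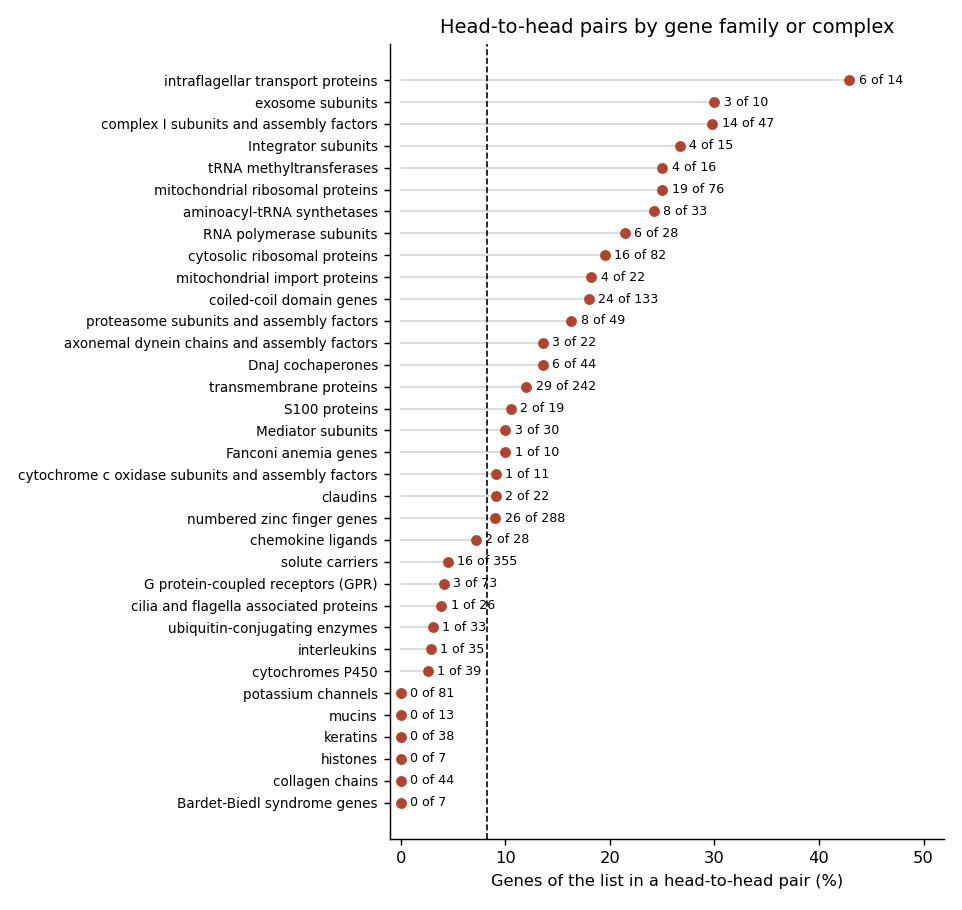
Share of the genes of each of 34 families or complexes that were in a head-to-head pair (x axis, percent), with the count beside each point. The dashed line marks all coding genes at 8.28%. Intraflagellar transport proteins stand highest with 6 of 14, and 6 lists, potassium channels, mucins, keratins, histones, collagen chains and Bardet-Biedl syndrome genes, stand at 0. Lists were matched by symbol, so KCNMB3 and the histone genes with placeholder symbols are not in them.

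Within these families some partners worked in the same organelle. MRPS11 and MRPL46 (39 bp) are both mitochondrial ribosomal proteins. MRPL47 faced NDUFB5 of complex I at 23 bp, and MRPL35 faced IMMT, the inner membrane organizer, at 65 bp. TIMM8B of mitochondrial import faced SDHD, a subunit of succinate dehydrogenase, at 91 bp. In HARS-LOC100521256 (47 bp) the partners were the cytosolic histidine-tRNA ligase and a gene whose product is named as the mitochondrial one. Other partners had another role, such as PSMA2 of the proteasome with MRPL32 (108 bp), RPS25 with the trafficking protein TRAPPC4 (22 bp) and NDUFA9 with the sperm anchoring protein AKAP3 (41 bp).

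Families of membrane, secreted and structural proteins ranged from 0 to above the background. By symbol, no gene was in a pair among 44 collagen chains, 38 keratins, 13 mucins and 81 potassium channel genes. The potassium channel pattern leaves out some subunits, of which KCNMB3 was a member. Overlapping 5′ ends were found for 5 of the collagen genes, among them COL4A1-COL4A2 (overlap of 524 bp) and COL4A3-COL4A4 (662 bp). Solute carriers were at 4.51% (16 of 355) and had overlapping 5′ ends for 21 more, while claudins were at 9.09% (2 of 22). Of all 20679 coding genes, 854 outside the pairs had overlapping 5′ ends, the background for these overlap counts. Of 242 genes with the symbol of a transmembrane protein 29 were members, a share above 8.28%. Cytochromes P450 were at 2.56% (1 of 39) and interleukins at 2.86% (1 of 35). Ubiquitin-conjugating enzymes were also low at 3.03% (1 of 33). Numbered zinc finger genes were near the background at 9.03% (26 of 288). The S100 list counted 2 members of 19, S100A13 and S100PBP, and the latter encodes a binding protein of S100P.

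The study's curated lists of electrolyte transporters and host defense genes bear on what the glands do. Of 401 transporter genes matched by symbol among 422, 17 were in pairs (4.24%, beside 8.28%). They lay in 16 pairs with a median distance of 129 bp (5 to 370). Both promoters were CpG-rich in 12 of the 16, beside 79.0% of all pairs. SLC4A2, a chloride-bicarbonate exchanger, faced CDK5 at 292 bp. ATP6V1D of the vacuolar proton pump faced EIF2S1, the alpha subunit of the initiation factor eIF2, at 117 bp. CLCN2 faced the RNA polymerase subunit POLR2H at 198 bp, and SCNN1D faced UBE2J2 at 91 bp. ATP4A, the gastric proton pump subunit, stood 5 bp from HAUS5, and P2RX3, an ATP-gated channel of sensory neurons, 14 bp from SSRP1. SLC26A11-SGSH (22 bp), FHOD1-SLC9A5 (86 bp), BANP-CA5A (131 bp), KCNMB3-ZNF639 (190 bp), IQCD-TPCN1 (231 bp), RPS23-ATP6AP1L (301 bp) and CLIC2-LOC100620916 (302 bp) followed. In CLDN7-SLC2A4 (370 bp) both partners were listed, CLDN7 being a tight junction claudin and SLC2A4 a glucose transporter. DUOXA2-DUOX2 stood at 109 bp.

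Of the host defense genes 427 of 774 symbols matched, so the share of 19 in pairs (4.45%) stands beside 8.28% and covers only part of that list. Many listed members have general roles, such as RPS19 and RPL30 of the ribosome. The 10 closest were ABCE1-ANAPC10 (9 bp), PDZD11-KIF4A (29 bp), AIMP1-TBCK (41 bp), NFS1-ROMO1 (42 bp), EIF2AK4-GPR176 (92 bp), TKFC-DDB1 (102 bp), ERICH5-RPL30 (105 bases between), EXOSC5-BCKDHA (120 bp), DZANK1-POLR3F (131 bp) and RPS19-LYPD4 (137 bp). IRF3-BCL2L12 (374 bp) and CEBPZOS-EIF2AK2 (449 bp) were the widest. EIF2AK2 is the kinase that senses double-stranded RNA.

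Genes of 1 family faced each other in several pairs. Histones H2A and H2B, which form a dimer in the nucleosome, were looked up by product name after the pairs had been seen. Of 47 genes with such a product 21 were in pairs (44.7%, beside 8.28%), and in 10 pairs an H2A gene faced an H2B gene, each under a placeholder symbol. These 10 lay 91 to 273 bp apart, with a median of 211 bp. In 13 pairs both symbols had the same letters before the first digit, which does not by itself make the genes 1 family. Of these, 6 had ZNF or ZBTB symbols: ZNF568-ZNF829 (20 bp), ZBTB25-ZBTB1 (28 bp), ZNF263-ZNF200 (29 bp), ZNF784-ZNF581 (47 bp), ZNF404-ZNF45 (77 bp) and ZNF10-ZNF891 (92 bp). The others were DYDC1-DYDC2 (34 bp), ZIC4-ZIC1 (45 bp), ABCG8-ABCG5 (80 bp), WDR83-WDR83OS (81 bp, which share a name only), ART1-ART5 (129 bp), DCST1-DCST2 (211 bp) and COLCA1-COLCA2 (770 bp). Symbols without a digit and placeholders are outside this rule, which therefore misses SAFB-SAFB2 (28 bp) and HADHB-HADHA. ZIC1 and ZIC4 are transcription factors of the developing cerebellum.

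A list of 33 textbook divergent pairs was looked up by symbol. By symbol 16 were members, and 3 more were members under placeholder symbols identified by their products. These were LOC100627195-ATM at 141 bp, whose minus-strand gene encodes NPAT, LOC110256505-SURF2 at 6 bp, with SURF1, and HARS-LOC100521256. The 19 had a median distance of 110 bp. Beyond those printed above they included HSPD1-HSPE1 (521 bp), the mitochondrial chaperonin and its co-chaperonin, MCM4-PRKDC (411 bp), PDCD10-SERPINI1 (367 bp), AFMID-TK1 (168 bp), WRN-PURG (166 bp), CHEK2-HSCB (110 bp), FEN1-TMEM258 (107 bp), ACD-PARD6A (93 bp) and ZAR1L-BRCA2 (74 bp). In 9 the 5′ ends overlapped, among them PPAT-PAICS by 377 bp. SARS2-MRPS12 met the distance at 124 bp, but the annotation gave MRPS12 only noncoding transcripts. GART-SON (3278 bp), UNG-ALKBH2 (2586 bp) and COL4A6-COL4A5 (207899 bp) were among the 4 too far apart.

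The authors edited RefSeq gene models where reads of these glands aligned poorly, mainly by extending 3′ UTRs. Of 237 edited genes found in the annotation, 22 were in pairs (9.28%, beside 8.28%), in 21 pairs. No 5′ end of a pair had been moved by the edits: 857 pairs were in both annotations at the same distance. HYPK-SERINC4 (535 bp), with the added gene HYPK, was only in the deposited one.

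**Figure D5:**
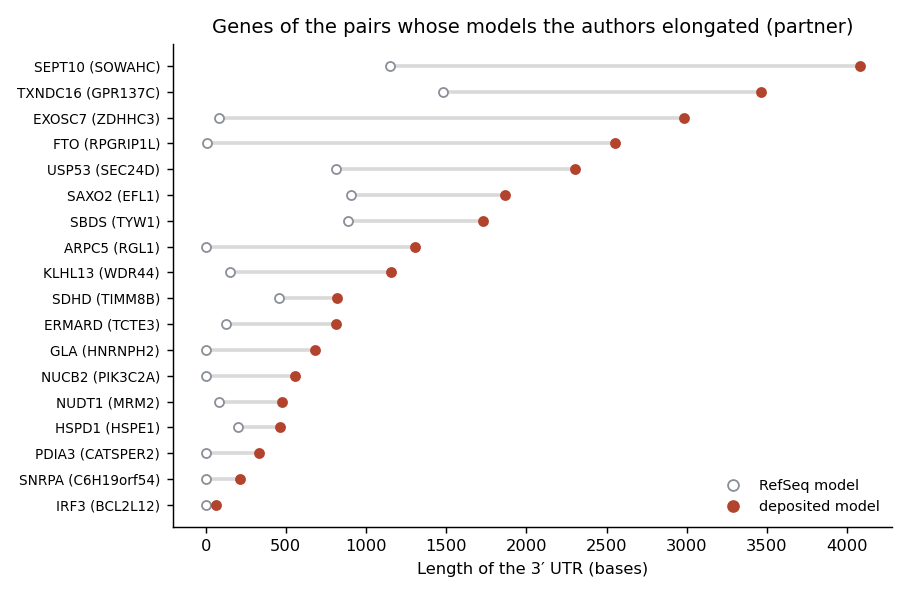
Length of the 3′ UTR in bases (x axis) of the 18 elongated genes of the pairs, with the partner in parentheses. Open points show the RefSeq model and red points the deposited model. Every gene moved to the right, by 67 bases for IRF3 to 2931 for SEPT10.

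In the 18 elongated genes the 3′ end moved outward by a median of 765 bases. Their median 3′ UTR was 106.5 bases in RefSeq and 987.5 in the deposited models. SEPT10, a septin, went from 1148 to 4079 bases, EXOSC7 of the exosome from 82 to 2981, and FTO, an RNA demethylase, from 10 to 2553. TXNDC16 went from 1482 to 3465 and USP53 from 811 to 2302. The RefSeq models of 5 had no 3′ UTR: ARPC5 of the actin-nucleating Arp2/3 complex gained 1304 bases, GLA, the lysosomal alpha-galactosidase, 684, NUCB2 556, SNRPA of the U1 snRNP 215 and IRF3 67. PDIA3, an endoplasmic reticulum disulfide isomerase, went from 3 to 336 and HSPD1 from 204 to 465. The remaining elongated genes, KLHL13, ERMARD, NUDT1, SAXO2, SBDS and SDHD, ended between 475 and 1867 bases.

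Only LRCH4, FBXO24 and RPAIN were on the study's list of reduced models. LRCH4 and FBXO24 are partners 65 bp apart. By position along the gene, the 3′ end of LRCH4 fell by 1813 bases and that of FBXO24 fell by 5971 bases. The outer bounds of RPAIN, 36 bp from NUP88, were the same in both annotations. None of the edited genes' partners other than these was edited.

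Exon bases shared with another gene on the same strand, which blur the assignment of reads, occurred for 51 genes of the pairs (2.98%) and 644 of the others (3.4%).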

How the data were processed

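Glands of 4 wild-type pigs and 4 CFTR-/- pigs, all newborn, had been sequenced as single cells with 3′ chemistry. The submitters' processing notes name Cell Ranger 3.0.2. The file used here is the gene annotation deposited by the authors: RefSeq annotation release 106 of Sscrofa11.1 with gene models edited by hand. Its values are coordinates of exons, coding sequence and stop codons, with no value per sample, so the sequencing depth behind the edits is unknown.

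The 5′ end of a gene was the farthest 5′ exon base over its transcripts. Distances are differences of coordinates. Genes without the protein-coding label were left out. Bases came from the RefSeq genome of the same build (309 sequence lengths checked), read with pysam 0.24.0 in Python 3.11.15, with numpy 2.4.6, scipy 1.17.1 and matplotlib 3.10.9. Scripts were tested on simulated data (12 of 12 checks passed). No statistical test was run.

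Pairs named are the closest, those at the bound, those with edited, transporter or host defense genes, textbook pairs, pairs with shared symbol letters, and extremes of GC content and span. Other pairs named as examples were chosen after their values were seen. Some pairs that this rule names are not reported here. The pairs and lists were chosen with earlier results of these data known. Families were matched by symbol patterns (34 lists). Alternatives changed the bound, the 5′ end, the window, the CpG thresholds and the genes counted.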

Additional observations from a re-analysis of the deposited data

How the results depend on the processing

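Of 48 alternatives, 33 left the value within its interval, or within 1.5 times where it was a count, and 15 moved it. Adding overlapping 5′ ends gave 1288 pairs in place of 858. The share of coding genes in pairs was 7.55% with a bound of 500 bp, 9.19% with 2000 bp and 9.09% without placeholder symbols. The median distance was 100 bp and 128 bp with those bounds, and 133 bp from the transcript with the longest coding sequence, by which 844 pairs were found and 755 were shared. With a window of 500 bases before the 5′ end, the median CpG ratio was 0.794 (others 0.493) and 81.5% of promoters were CpG-rich (others 34.0%). The Sp1 box was then in 77.9% (others 47.7%), the CCAAT box in 49.5% (others 50.2%, so its order turned) and the E-box in 13.5% (others 10.2%). Stricter thresholds, a ratio of 0.75 and 55% GC, left 65.6% CpG-rich (others 30.8%). TATAAA anywhere in the window was in 5.2%. The first 3 letters were equal in 21 pairs. Counting 1 gene per pair and leaving out the mitochondrial pair were chosen after seeing the data and moved no value.

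No paired analysis was possible because only gene models were compared, with no value for any animal. Most 5′ ends came from no curated transcript, so the distances and windows carry an error that the annotation does not give. Intervals used to judge a move cover counting error only. Depth is unknown.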
